A study of Homo sapiens with 16 samples.

Results

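The clustered histone genes are the protein-coding genes whose current symbol is H1-1 to H1-6 or starts with H2AC, H2BC, H3C or H4C, the HIST1 to HIST4 genes of older names. Current symbols were matched through the Ensembl identifiers, and 70 of the 60448 identifiers of the deposited table met the rule. For 4 of them the symbol came from the older name. Of the 70, 55 lie on chromosome 6, 13 on chromosome 1 and 1 on chromosome 12. The last, H2BC12L on chromosome 21 (older name H2BFS), lies outside the clusters and met the rule by its symbol alone. FPKM, the unit of the table, counts fragments per kilobase of gene model, scaled to library depth. Averaged over the 16 libraries, 32 members reached 0.5 FPKM and 38 did not, and 4 of these were listed at 0 throughout.

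Each nucleosome is built from the core histones H2A, H2B, H3 and H4, and linker histones of the H1 family bind where DNA enters and leaves it. Most copies of these proteins come from gene clusters that are transcribed during S phase, under NPAT, and their messages end in a conserved stem-loop that the protein SLBP binds, without a poly(A) tail. Some of the same genes can also give polyadenylated messages by using a downstream poly(A) signal, a form known from differentiated and arrested cells. Purification on oligo(dT), as the labels' protocol describes for these libraries, enriches the polyadenylated form, so the values below are not a measure of total histone mRNA.

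RNA came from A549, a human lung adenocarcinoma line, and from its cisplatin-resistant derivative A549/cDDP, which the labels say was kept in medium with 15 mM cisplatin between experiments (the unit is printed as labelled and was not checked here). The 8 groups of 2 libraries were A549/cDDP with a gapmer to SCAT7, a long noncoding RNA, in cisplatin and in solvent; A549/cDDP with a control gapmer, in cisplatin and in solvent; A549/cDDP without transfection, in cisplatin and in solvent; and A549 without transfection, in cisplatin and in solvent. Cisplatin, a drug that crosslinks DNA, was given for 24 h at a labelled 15 mM. The sample titles call the targeted RNA only L2; it is taken as SCAT7 because that is the 1 long noncoding RNA the series' design text names. Gapmers, antisense oligonucleotides that direct RNase H to an RNA, were used at 12 pmol on 35000 cells, and cells were collected 48 h after transfection. The labels do not say whether A549/cDDP is 1 clone, and do not state whether 2 replicates came from 2 cultures; the p-values therefore speak only of the spread from library to library. In bulk RNA, a change in the share of cells that carry a message and a change in its amount per cell cannot be told apart.

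Estimated depth ran between 31350000 and 43140000 fragments. Replicates correlated at 0.991 to 0.996 across genes. Of the epithelial markers, KRT8, KRT18 and KRT19 were at 90.5 FPKM or more in every library, while CDH1 ran from 2.02 to 14.5, CLDN4 from 1.72 to 3.57 and EPCAM from 0.584 to 3.81 FPKM. The leukocyte markers PTPRC and CD3E were at most 0.115 FPKM and CD68 at most 0.958 FPKM, the endothelial markers PECAM1, CDH5 and VWF at most 0.235 FPKM, and the fibroblast markers COL3A1, DCN and LUM at most 0.389 FPKM, but COL1A1 was at 7.20 to 52.7 FPKM. The part of other cell types in the results was not tested. CDKN2A, a gene known to be deleted in A549, was at most 0.399 FPKM. The target itself, taken as ELF3-AS1 because the RefSeq gene table gives SCAT7 as its other name, had 0.594 and 0.837 FPKM with the SCAT7 gapmer against 2.56 and 3.57 FPKM with the control gapmer in solvent, and 1.69 and 2.18 FPKM against 3.73 and 3.23 FPKM in cisplatin.

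The stem-loop and the poly(A) signal are shown first, because they mark the alternative ends of a histone message, of which oligo(dT) captures the polyadenylated one. In the GENCODE 29 transcripts, the stem-loop was searched as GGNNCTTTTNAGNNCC on the sense strand. It occurred in 59 of 19657 protein-coding genes, of which 30 were members. The lines give it in capitals with 5 bases on each side, 5′ to 3′ in DNA letters, for 6 members of high level.
H2BC21 stem-loop: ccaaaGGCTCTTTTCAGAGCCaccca
H2AC6 stem-loop: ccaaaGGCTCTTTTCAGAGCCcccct
H2BC4 stem-loop: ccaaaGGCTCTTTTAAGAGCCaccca
H2BC5 stem-loop: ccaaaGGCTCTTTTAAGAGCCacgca
H4C8 stem-loop: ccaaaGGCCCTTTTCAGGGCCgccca
H2AC25 stem-loop: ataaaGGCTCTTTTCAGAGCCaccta
The models of H2BC21, H2AC6, H4C8 and H2AC25 run on for 1729, 1128, 1655 and 390 bases after the stem-loop. Their last 50 bases hold AATAAA or ATTAAA, the poly(A) signals. The last 28 bases of 2 such models are given with the signal in capitals.
H2BC21 model end: tattAATAAAgttaccaattaatttaaa
H3C10 model end: gactaAATAAAatctgtataatccccac
Of the 32 members at or over 0.5 FPKM, 17 had a model with such a signal at its end, and of the 38 under it, 6 did. The stem-loop lay within the model of 20 of the 32 and 10 of the 38. Models that hold the coding sequence alone made up 8 of the 32 and 24 of the 38, and the median exon length was 922.5 and 411 bases. This matters for the levels: H2BC12 (381 bases) and H1-2 (642 bases) have coding-only models in GENCODE 29, so levels of different members on this per-length scale depend on the model. On the lengths of these models, the values of H2BC21, H4C8, H2AC6, H2BC4, H3C6 and H4C5, among others, were not whole read numbers. The lengths behind their FPKM are therefore uncertain. Which annotation release was counted, and whether by strand, is not given in the sources used here.

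The regions upstream of 4 of the most abundant or most divergent members are given from the RefSeq promoter table (build GRCh38.p14, 250 bases before to 50 after the start, 5′ to 3′ on the gene's own strand). Capitals mark CCAAT, ATTTGCAT (the histone octamer) and TATAAA, searched on both strands.
H2BC21 promoter, chr1:149886633-149886932, minus strand: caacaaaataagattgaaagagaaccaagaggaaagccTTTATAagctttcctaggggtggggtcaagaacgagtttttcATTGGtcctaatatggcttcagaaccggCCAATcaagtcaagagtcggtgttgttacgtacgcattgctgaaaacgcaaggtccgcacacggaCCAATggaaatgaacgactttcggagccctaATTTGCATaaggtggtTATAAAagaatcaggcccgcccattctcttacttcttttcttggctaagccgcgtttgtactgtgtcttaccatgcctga
H2AC6 promoter, chr6:26123922-26124221, plus strand: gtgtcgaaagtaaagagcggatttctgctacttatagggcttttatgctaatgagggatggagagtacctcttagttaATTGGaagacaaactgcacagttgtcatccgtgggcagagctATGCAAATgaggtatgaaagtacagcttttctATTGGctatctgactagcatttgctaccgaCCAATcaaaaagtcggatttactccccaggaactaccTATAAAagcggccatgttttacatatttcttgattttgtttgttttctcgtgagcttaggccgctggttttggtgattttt
H1-2 promoter, chr6:26056421-26056720, minus strand: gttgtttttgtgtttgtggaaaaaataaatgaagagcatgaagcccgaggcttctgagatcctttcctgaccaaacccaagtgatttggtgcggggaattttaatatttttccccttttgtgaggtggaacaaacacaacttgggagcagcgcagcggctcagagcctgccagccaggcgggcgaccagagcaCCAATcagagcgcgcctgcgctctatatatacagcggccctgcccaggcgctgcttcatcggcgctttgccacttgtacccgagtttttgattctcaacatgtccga
H2BC12 promoter, chr6:27146809-27147108, minus strand: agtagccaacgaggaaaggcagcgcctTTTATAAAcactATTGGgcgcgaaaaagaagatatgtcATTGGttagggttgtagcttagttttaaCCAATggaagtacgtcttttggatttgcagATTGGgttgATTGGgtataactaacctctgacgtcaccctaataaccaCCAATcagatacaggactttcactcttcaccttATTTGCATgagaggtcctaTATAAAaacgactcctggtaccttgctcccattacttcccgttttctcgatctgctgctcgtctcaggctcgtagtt
H2BC21 faces H2AC20, which starts 323 bases away on the opposite strand, and H2AC6 faces H2BC4, 219 bases away. The table held 64 of the 70 members. CCAAT occurred in 54 of the 64 and in 35.7% of all 27305 promoters of the table. TATAAA occurred in 42 of the 64 and in 12.0% of all. The octamer occurred in 26 of the 64, of which 14 were H2B genes, and in 1.8% of all. Among the 31 tested members with an entry, the octamer was in 11, CCAAT in 25 and TATAAA in 20. A match is a description of these letters only.

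A few genes carried most of the signal. H2BC12 (older name HIST1H2BK), H1-2 (HIST1H1C), H2BC5 (HIST1H2BD) and H2AC6 (HIST1H2AC) averaged 89.8, 70.003, 44.3 and 36.2 FPKM over all libraries. Together they held 60.8% to 67.6% of the summed FPKM of the 70 members in every library. H2BC21 (HIST2H2BE), H4C8, H2BC4 and H2BC11 followed at 18.4, 17.1, 16.9 and 14.2 FPKM. Of 19 H2B genes 12 passed the threshold of 0.5 FPKM, as did 7 of 17 H2A, 7 of 15 H4, 4 of 13 H3 and 2 of 6 H1 genes. H2AC19 (0.553 FPKM) and H2BC26 (0.551 FPKM) lay just inside the threshold, and H1-3 (0.432 FPKM) and H3C12 (0.395 FPKM) just outside.

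The summed level was 617 and 600 FPKM with the SCAT7 gapmer in cisplatin and 659 and 611 FPKM in solvent. The control gapmer gave 307 and 302 FPKM in cisplatin and 332 and 348 FPKM in solvent. Untransfected A549/cDDP stood at 468 and 476 FPKM in cisplatin and 392 and 410 FPKM in solvent, and A549 at 140 and 137 FPKM in cisplatin and 114 and 114 FPKM in solvent. The SCAT7 gapmer libraries were thus the highest, with their cisplatin and solvent values overlapping, and the A549 libraries the lowest. Of the 32 tested members, 29 had their highest group mean in a SCAT7 gapmer group and 29 their lowest in an A549 group. The share of all genes tested with such a highest or lowest group was not computed, so these counts have no background. The 32 include 3 members that averaged under the threshold outside the SCAT7 gapmer libraries and 9 that did so in A549. All 4 A549 libraries lay under all 12 A549/cDDP libraries for 22 of the 32 members and 21% of all 17198 genes tested. Without the 9 members under the threshold in A549, an omission made after seeing the data, this held for 18 of 23. All 4 SCAT7 gapmer libraries lay over the other 12 for 17 of the 32 members and 15.6% of all genes tested.

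**Figure D1:**
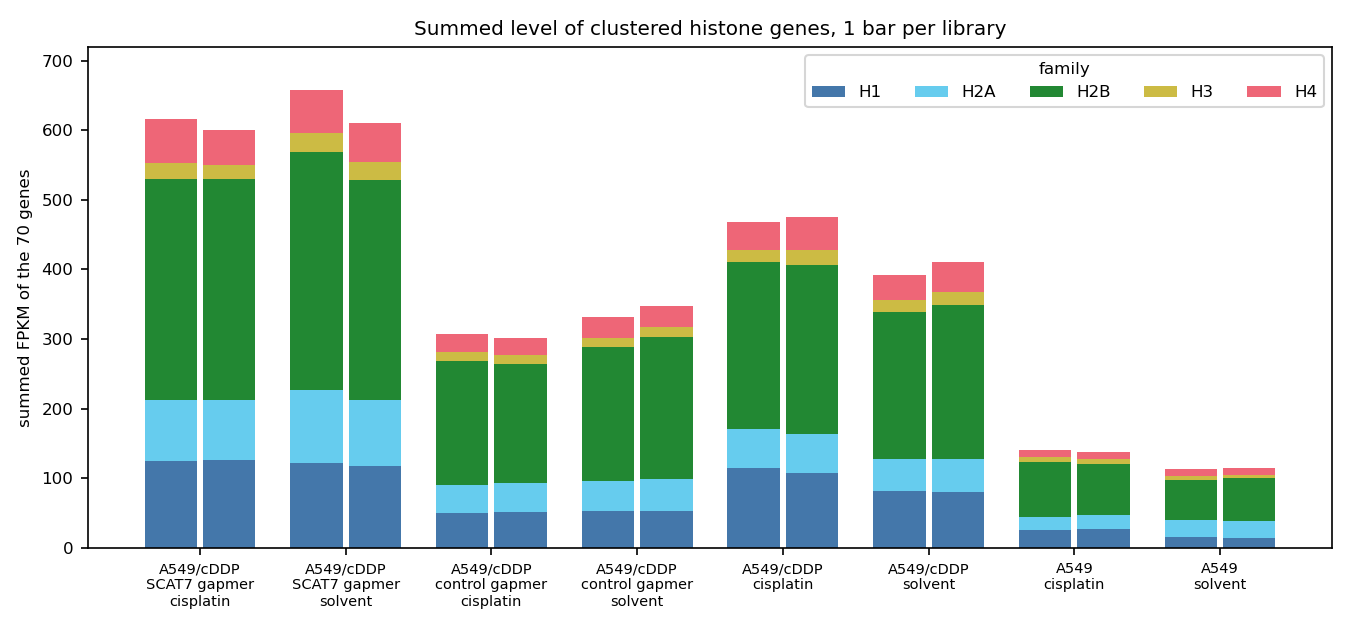
Summed FPKM of the 70 clustered histone genes (y axis) in each of the 16 libraries, 1 bar per library and 2 per group, coloured by family. The A549 bars stand at 114 to 140 FPKM and the SCAT7 gapmer bars at 600 to 659 FPKM, with H2B genes as the largest segment of every bar.

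The comparison of lines asks how A549/cDDP differs from its parent. Without transfection and in solvent, 26 of the 32 tested members were higher in A549/cDDP than in A549 and 2 were lower; over all 17198 genes tested, 70.2% were called, 42.7% higher and 27.5% lower (limma, log2(FPKM + 0.5), Benjamini-Hochberg adjusted p under 0.05). The median log2 change of the members was 1.37, against 0.15 over all genes tested. In cisplatin, 25 members were higher and 0 lower, with 66.5% of all genes called (37% and 29.5%), a median of 1.65 and a median of all genes of 0.08. At an unadjusted p under 0.05, 26 members were higher and 0 lower in cisplatin. With the libraries rescaled by median ratio, all genes split into 5708 higher and 6327 lower in solvent (7338 and 4737 as deposited), and the members still into 26 and 2; quantile normalization gave members 24 and 2 in solvent and 24 and 1 in cisplatin. Of the members, 9 averaged under 0.5 FPKM in A549 and passed through the A549/cDDP libraries; without them, an omission made after seeing the data, 20 of 23 were higher and 2 lower in solvent, and 19 and 0 in cisplatin. Of all 32, 24 were higher in both media, against 26.3% of all genes tested. Without the 9 members under the threshold in A549, 19 of 23 were. The summed level was 3.52 times that of A549 in solvent and 3.41 times in cisplatin.

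H2BC4 (HIST1H2BC, an H2B gene at chr6:26114873-26123926) differed most. It had 16.8 and 17.4 FPKM in A549/cDDP, against 0.843 and 1.16 FPKM in A549, in solvent. In cisplatin it had 21.4 and 22.6 FPKM in A549/cDDP, against 1.87 and 2.11 FPKM in A549. The libraries of the lines lay far apart in both media, with log2 changes of 3.56 ± 0.12 (SE; limma adjusted p = 8.85e-11) and 3.18 ± 0.12 (limma adjusted p = 2.89e-10). H4C8, an H4 gene, had 21.4 and 24.0 FPKM in A549/cDDP, against 2.34 and 1.57 FPKM in A549, in solvent, and was 3.26 ± 0.17 higher in log2 (limma adjusted p = 5.16e-09).

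H1-2, the most abundant linker histone here (chr6:26055787-26056428), had 79.2 and 78.8 FPKM in A549/cDDP, against 14.6 and 13.2 FPKM in A549, in solvent. In cisplatin it had 112 and 105 FPKM in A549/cDDP, against 25.2 and 26.1 FPKM in A549. No A549/cDDP library overlapped A549, and the log2 changes were 2.47 ± 0.05 (limma adjusted p = 1.42e-12) and 2.06 ± 0.05 (limma adjusted p = 6.84e-12). H2BC21, on chromosome 1 (chr1:149884459-149886652), had 18.01 and 18.7 FPKM in A549/cDDP, against 3.39 and 2.91 FPKM in A549, in solvent, a log2 change of 2.37 ± 0.07 (limma adjusted p = 2.84e-11).

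The other 3 abundant genes rose less on the log2 scale. H2BC12 had 95.8 and 102 FPKM in A549/cDDP, against 31.9 and 33.5 FPKM in A549, in solvent (1.58 ± 0.06, limma adjusted p = 3.77e-10). H2BC5 had 52.6 and 49.9 FPKM in A549/cDDP, against 12.9 and 13.6 FPKM in A549 (1.92 ± 0.06, limma adjusted p = 4.18e-11). H2AC6, an H2A gene, had 34.0 and 33.4 FPKM in A549/cDDP, against 11.4 and 10.7 FPKM in A549 (1.57 ± 0.05, limma adjusted p = 7.5e-11). The libraries of each of these genes separated by line without overlap. H2BC12 has a near copy in H2BC12L, with 98.95% identical coding bases, so its reads could have been shared with that gene; H2BC12L too was higher in A549/cDDP (4.32 and 4.12 FPKM, against 1.13 and 1.67 FPKM). All 460 bases of H2BC12L lie within HSF2BP on the opposite strand, so without strand its reads cannot be told from those of that gene.

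Members of every family were among those that rose. In solvent, 10 of 12 H2B genes, 6 of 7 H4 genes, 4 of 7 H2A genes, 4 of 4 H3 genes and 2 of 2 H1 genes were higher. By place, these were 10 of the 11 tested genes in the cluster part at chr6:25726132-26285638, 9 of 11 at chr6:27125897-27893843 and 5 of 8 on chromosome 1. H4C16, on chromosome 12, and H2BC12L were higher too. Both genes lower in solvent were H2A genes on chromosome 1, H2AC20 and H2AC25. Between the ends of the chromosome 6 clusters, 14 other protein-coding genes were tested; 10 were higher and 2 lower in solvent, with a median log2 change of 0.48, against 1.47 for the 22 histone genes there. In cisplatin 8 were higher and 3 lower, with medians of 0.41 and 1.71 for other and histone genes. This interval was chosen after the values were seen.

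**Figure D2:**
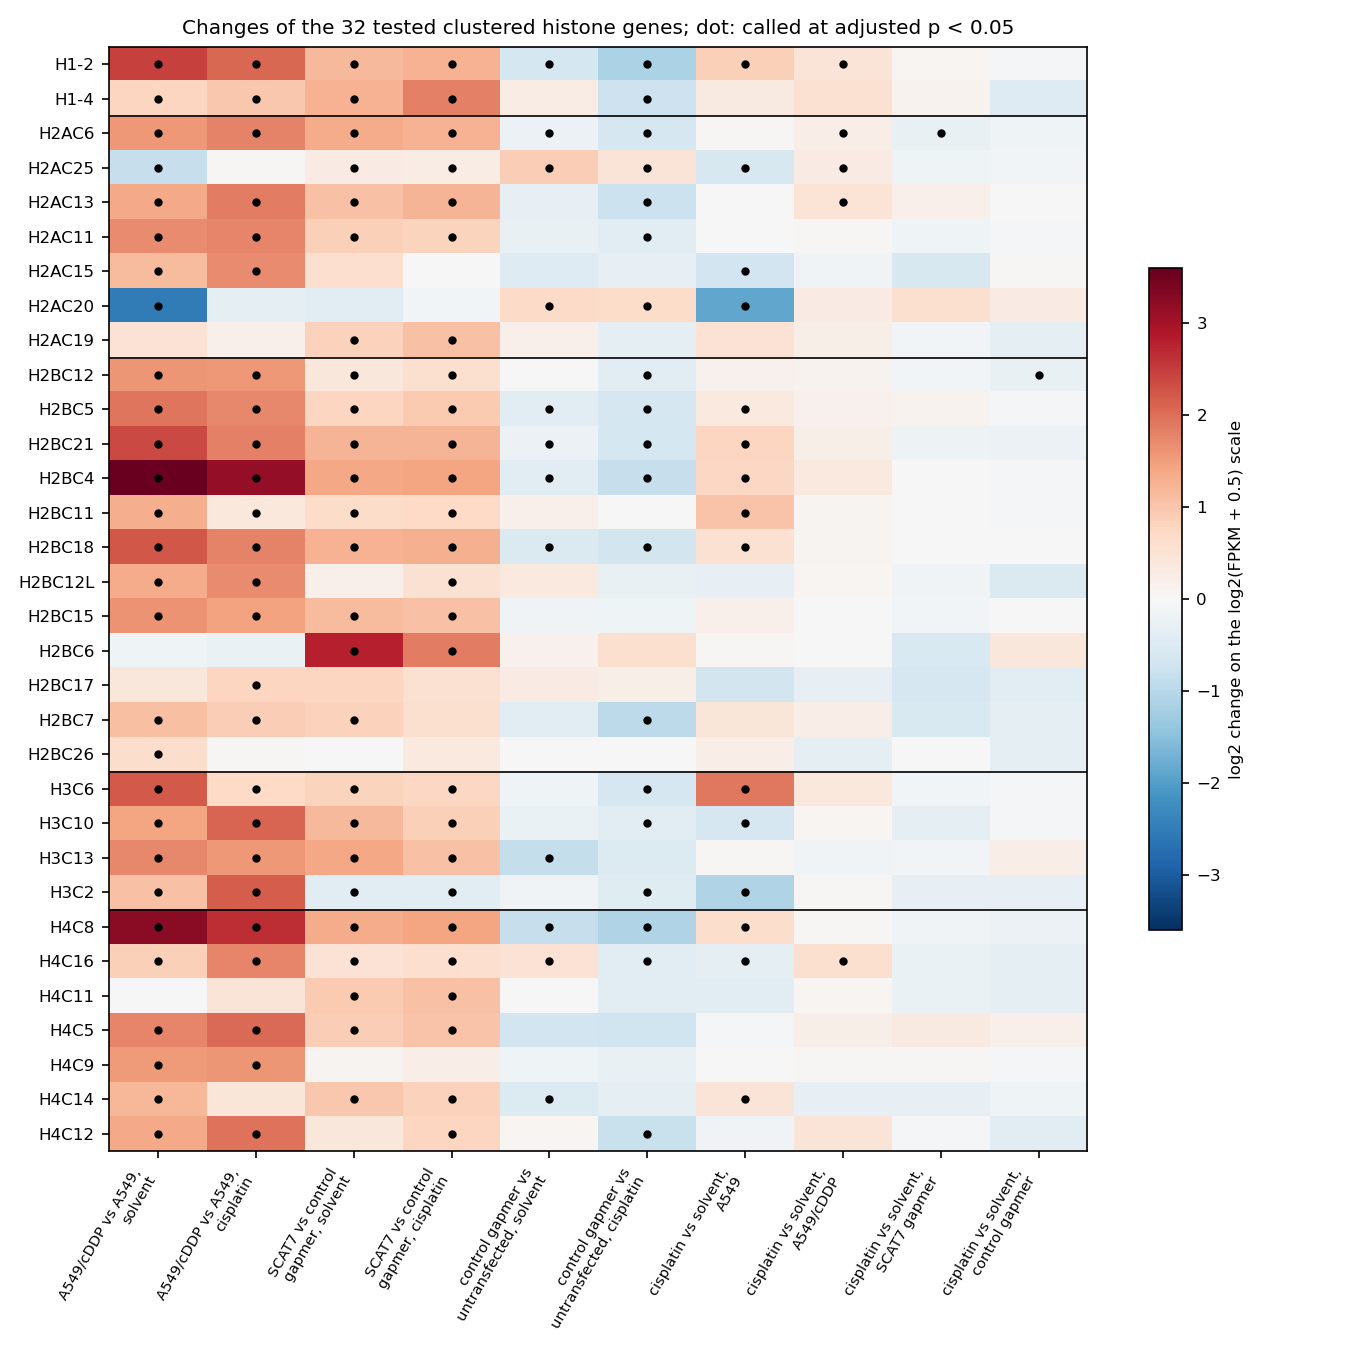
Log2 changes (colour, on the log2(FPKM + 0.5) scale) of the 32 tested members (rows, by family) in 10 comparisons (columns); a dot marks a change past the threshold. Both line columns and both SCAT7 gapmer columns are mostly red, with H2AC20 blue in the solvent line column (fell by 2.52) and H3C2 pale blue in both SCAT7 gapmer columns.

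The gapmer comparison sets the SCAT7 gapmer against the control gapmer in A549/cDDP. All SCAT7 gapmer libraries carry the same label, L2, so loss of SCAT7 and other effects of the oligonucleotide cannot be told apart. In solvent, 24 of the 32 members were higher with the SCAT7 gapmer than with the control gapmer and 1 was lower, with 55.8% of all genes tested called (33.2% and 22.7%). In cisplatin 25 were higher and 1 lower, with 49.7% of all genes called (28.6% and 21.1%). Median log2 changes were 0.85 and 0.84 for the members and 0.06 and 0.04 over all genes tested. Rescaling by median ratio gave 22 higher and 1 lower in solvent and 24 and 1 in cisplatin, and quantile normalization 20 and 2 and 22 and 1. The solvent and cisplatin comparisons use different libraries, and 23 members were higher in both, against 25.4% of all genes tested. Of the 32, H2BC6, H2AC19 and H2BC26 averaged under 0.5 FPKM over the 12 libraries without the SCAT7 gapmer and passed the threshold through the SCAT7 gapmer libraries. Without these 3, an omission made after seeing the data, 22 of 29 members were higher and 1 lower in solvent, 23 and 1 in cisplatin, 21 were higher in both media, and 15 had all SCAT7 gapmer libraries over the others. The summed level was 1.87 times that with the control gapmer in solvent and 1.998 times in cisplatin. Depth moved with the gapmer, 31350000 to 33400000 fragments with SCAT7 and 42300000 to 43140000 with control, and its part in the result was not tested.

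H2AC6 had 78.7 and 71.2 FPKM with the SCAT7 gapmer, against 28.2 and 30.0 FPKM with the control gapmer, in solvent. In cisplatin it had 63.0 and 62.4 FPKM with the SCAT7 gapmer, against 25.8 and 26.8 FPKM with the control gapmer. All SCAT7 gapmer libraries were the higher ones, with log2 changes of 1.35 ± 0.05 (limma adjusted p = 1.36e-09) and 1.24 ± 0.05 (limma adjusted p = 6.34e-09). Its divergent partner H2BC4 had 38.1 and 30.8 FPKM with the SCAT7 gapmer, against 12.5 and 12.9 FPKM with the control gapmer, in solvent (1.40 ± 0.12, limma adjusted p = 1.03e-06). H1-2 had 116 and 112 FPKM with the SCAT7 gapmer, against 49.97 and 50.9 FPKM with the control gapmer, in solvent (1.17 ± 0.05, limma adjusted p = 2.69e-09). H2BC21 had 38.7 and 35.5 FPKM with the SCAT7 gapmer, against 15.1 and 16.2 FPKM with the control gapmer (1.22 ± 0.07, limma adjusted p = 2.76e-08). None of these pairs of groups overlapped.

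The most abundant gene changed least among the genes named in every comparison (H1-2, H2BC21, H2BC12, H2AC6, H2BC4 and H2BC5). H2AC25 had a smaller log2 change, 0.30 in solvent. H2BC12 had 137 and 131 FPKM with the SCAT7 gapmer, against 97.3 and 103 FPKM with the control gapmer, in solvent, and rose by 0.42 ± 0.06 in log2 (limma adjusted p = 0.000114). H2BC5 had 70.3 and 63.1 FPKM with the SCAT7 gapmer, against 37.9 and 39.5 FPKM with the control gapmer (0.78 ± 0.06, limma adjusted p = 3.41e-07). In cisplatin both were again higher, by 0.59 and 0.93. H1-4, a linker histone of low level, had 3.58 and 3.58 FPKM with the SCAT7 gapmer, against 1.55 and 0.950 FPKM with the control gapmer, in solvent (1.24 ± 0.17, limma adjusted p = 4.73e-05).

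H2BC6, an H2B gene, had the largest log2 change with the SCAT7 gapmer in both media. It had 3.88 and 4.58 FPKM with the SCAT7 gapmer, against 0.240 and 0.1203 FPKM with the control gapmer, in solvent (2.80 ± 0.31, limma adjusted p = 1.09e-05). In cisplatin it had 2.66 and 2.76 FPKM with the SCAT7 gapmer, against 0.488 and 0.306 FPKM with the control gapmer (1.85 ± 0.31, limma adjusted p = 0.000411). Outside the SCAT7 gapmer groups H2BC6 stayed at or under 0.498 FPKM in all 12 libraries, and in A549 its replicates differed, with 0.498 and 0.00 FPKM in cisplatin and 0.424 and 0.00 FPKM in solvent. Its GENCODE model starts 709 bases past the end of H2BC5, on the same strand, and its low values were not whole read numbers on that model's length, so the model length behind its FPKM is uncertain. Because it passed the threshold of 0.5 FPKM only through the groups where it is high, a difference was bound to follow.

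H3C2, a coding-only model of an H3 gene, was the 1 member lower with the SCAT7 gapmer. It had 2.10 and 1.89 FPKM with the SCAT7 gapmer, against 2.82 and 2.65 FPKM with the control gapmer, in solvent, and fell by 0.38 (SE 0.13, limma adjusted p = 0.0294). In cisplatin it had 1.69 and 1.41 FPKM with the SCAT7 gapmer, against 2.18 and 2.13 FPKM with the control gapmer, and fell by 0.37 (limma adjusted p = 0.0336). The groups did not overlap in either medium. H3C2 rests on 4 to 50 reads per library, it was singled out after its values were seen, and in cisplatin 0 members were lower without the filter on low values or with only the groups compared. With 1 library left out, 0 members were lower in 3 of the 4 fits in each medium; 1 was lower only without the first control gapmer library in solvent and without the first SCAT7 gapmer library in cisplatin. Of the 32 members, 18 were higher in both line comparisons and both SCAT7 gapmer comparisons, against 10.4% of all genes tested. The 32 include members that passed the threshold through the A549/cDDP or the SCAT7 gapmer libraries. The filter favoured a rise in them, and this joint count was not made without them. The line and the gapmer comparisons share no library.

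Transfection was looked at through the control gapmer. Transfection, the control oligonucleotide and any other difference in handling between transfected and untransfected cells cannot be told apart. Against untransfected A549/cDDP, 9 of 32 members were lower and 3 higher in solvent, with 39.7% of all genes tested called (19% and 20.7%), and 17 were lower and 2 higher in cisplatin, with 42.4% called (19.4% and 23%). Without 1 library these counts were 7 to 12 in solvent (7 without the second untransfected library) and 11 to 17 in cisplatin (11 without the second untransfected library). The same control gapmer libraries serve in the SCAT7 comparison. H1-2 had 48.2 and 50.5 FPKM with the control gapmer, against 112 and 105 FPKM without transfection, in cisplatin, and fell by 1.13 in log2 (SE 0.05, limma adjusted p = 9.04e-09). In solvent it had 49.97 and 50.9 FPKM with the control gapmer, against 79.2 and 78.8 FPKM without transfection. H4C8 had 10.7 and 10.7 FPKM with the control gapmer, against 20.6 and 26.2 FPKM without transfection, in cisplatin, and fell by 1.09 (limma adjusted p = 0.000306). H2AC25 had 6.42 and 6.10 FPKM with the control gapmer, against 3.38 and 2.99 FPKM without transfection, in solvent, and rose by 0.88 ± 0.08 (limma adjusted p = 4.32e-06). H2AC20 was the other member higher in both media, by 0.68 and 0.67 (adjusted p up to 0.255 and 0.19 in limma with 1 library left out), and 7 members were lower in both, against 13.5% of all genes tested.

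Against untransfected A549/cDDP the SCAT7 gapmer groups still stood higher in summed level, at 617 and 600 FPKM against 468 and 476 FPKM in cisplatin and 659 and 611 FPKM against 392 and 410 FPKM in solvent. This pair of groups was not tested, since it differs in transfection as well as in the gapmer.

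With cisplatin for 24 h, the members in A549 went in both directions, as did all genes tested. Of 32, 9 were higher and 6 lower in cisplatin than in solvent, with 60.4% of all genes tested called (33.3% and 27.1%); the members' counts lie near these shares. The members' median log2 change was 0.05 and that of all genes 0.06. By median ratio all genes split into 4931 higher and 5438 lower (5729 and 4664 as deposited), and the members again into 9 and 6. By family, 1 of 2 H1 genes was higher, 5 of 12 H2B genes were higher and 0 lower, 3 of 7 H2A genes were lower and 0 higher, 1 of 4 H3 genes was higher and 2 lower, and 2 of 7 H4 genes were higher and 1 lower in limma. These counts by family are small, and a difference between families was not tested.

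H3C6, an H3 gene, rose most. It had 4.54 and 3.96 FPKM in cisplatin, against 0.863 and 0.691 FPKM in solvent (1.89 ± 0.17, limma adjusted p = 7.92e-07). H2BC11 had 10.1 and 10.2 FPKM in cisplatin, against 4.19 and 5.29 FPKM in solvent (1.04 ± 0.12, limma adjusted p = 6.76e-06). H1-2 had 25.2 and 26.1 FPKM in cisplatin, against 14.6 and 13.2 FPKM in solvent (0.86 ± 0.05, limma adjusted p = 1.13e-08). H2BC21 (0.77), H2BC4 (0.74), H4C8 (0.65) and H2BC5 (0.36) rose as well (log2 changes). H2AC6 had 11.4 and 11.3 FPKM in cisplatin, against 11.4 and 10.7 FPKM in solvent, with overlapping libraries (0.04 ± 0.05, limma adjusted p = 0.564; -0.04 by median ratio). H2BC12 had 37.6 and 35.1 FPKM in cisplatin, against 31.9 and 33.5 FPKM in solvent (0.15 ± 0.06, limma adjusted p = 0.0556).

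H2AC20, an H2A gene, fell most in A549. It had 0.774 and 0.764 FPKM in cisplatin, against 3.85 and 4.44 FPKM in solvent, and fell by 1.87 in log2 (SE 0.22, limma adjusted p = 8.42e-06). H3C2 had 0.334 and 0.264 FPKM in cisplatin, against 1.20 and 1.18 FPKM in solvent, and fell by 1.08 (limma adjusted p = 1.54e-05). H3C10 fell by 0.60, H2AC25 by 0.56 and H4C16 by 0.32. H2AC15 fell by 0.69 (limma adjusted p = 0.0333), a call lost without the first cisplatin or the second solvent library. It rests on about 1 and 5 reads in cisplatin, against 6 and 12 in solvent. Its model lies within that of H2BC15 on the opposite strand over 393 bases, so reads of the pair cannot be told apart without strand.

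In A549/cDDP without transfection, 5 members were higher in cisplatin than in solvent and 0 lower, with 8.1% of all genes tested called (3.55% and 4.55%). At an unadjusted p under 0.05, 10 were higher and 0 lower, against 11.1% and 11% of all genes tested. H1-2 had 112 and 105 FPKM in cisplatin, against 79.2 and 78.8 FPKM in solvent (0.46 ± 0.05, limma adjusted p = 0.000339). H4C16 (0.58), H2AC13 (0.49), H2AC25 (0.31) and H2AC6 (0.25) were the others. Leaving out any 1 of the 4 libraries left 2 or 3 calls, the calls of H2AC25 and H2AC6 were lost each time, and that of H2AC13 in 3 of the 4 fits (adjusted p up to 0.267). With gapmers, cisplatin moved 1 member each. H2BC12 had 86.7 and 79.6 FPKM in cisplatin, against 97.3 and 103 FPKM in solvent, with the control gapmer (fell by 0.26, limma adjusted p = 0.0491), where 2.53% of all genes were called (0.855% lower, 1.67% higher). That call was lost under 5 other settings and without any 1 of the 4 libraries. H2AC6 had 63.0 and 62.4 FPKM in cisplatin, against 78.7 and 71.2 FPKM in solvent, with the SCAT7 gapmer (fell by 0.25, limma adjusted p = 0.0246), where 4.18% of all genes were called (1.26% lower, 2.92% higher); the call was lost without the first cisplatin or the first solvent library.

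The responses of the lines to cisplatin differed for 12 members, 7 with a positive and 5 with a negative difference (A549/cDDP minus A549), with 47% of all genes called (21.5% and 25.6%). Of the 7 positive differences, 5 belonged to genes that fell in A549, among them 2.16 ± 0.30 for H2AC20 (limma adjusted p = 8.73e-05), 1.11 ± 0.19 for H3C2 and 0.90 ± 0.13 for H4C16. All 5 negative ones belonged to genes that rose in A549 and were not called lower in A549/cDDP. Of these, H4C14 had a negative log2 change in A549/cDDP (-0.30), which was not called. The A549 change enters each difference with a minus sign, so this sorting by direction in A549 was partly fixed in advance. The difference was -1.51 ± 0.24 for H3C6 (limma adjusted p = 0.000223), with log2 changes of 0.39 in A549/cDDP and 1.89 in A549. It was -0.93 ± 0.16 for H2BC11 (0.11 in A549/cDDP and 1.04 in A549). The difference of cisplatin responses between gapmers was called for 0 of 32 members by limma (1 at an unadjusted p under 0.05), with 0.93% of all genes called (0.488% higher, 0.442% lower).

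H2A and H2B genes often sit as divergent pairs that share 1 promoter region, and 11 such pairs were found, with starts 219 to 331 bases apart. In 4 of them both genes were tested. H2AC20 and H2BC21 went apart. In solvent H2AC20 had 0.397 and 0.232 FPKM in A549/cDDP, against 3.85 and 4.44 FPKM in A549 (fell by 2.52, SE 0.22, limma adjusted p = 4.24e-07), while H2BC21 rose. The mean of H2BC21 was 58.3 times that of H2AC20 in A549/cDDP and 0.760 times in A549. In A549 the ratio was 7.42 in cisplatin and 0.760 in solvent. H2AC20 rests on 3 to 61 reads per library and on a coding-only model of 390 bases. The GENCODE model of H2BC21 has 2194 bases, but its values were not whole read numbers on that length. The length behind its FPKM, and so its ratio to H2AC20, is therefore uncertain.

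H2AC6 and H2BC4 rose together in both line and both SCAT7 gapmer comparisons, but by unequal amounts between the lines. H2BC4 stood at 0.508 times H2AC6 in A549/cDDP and 0.0903 times in A549, in solvent. With the SCAT7 gapmer the ratio was 0.459, against 0.436 with the control gapmer, in solvent. H2AC25, on chromosome 1, had 3.38 and 2.99 FPKM in A549/cDDP, against 6.07 and 6.06 FPKM in A549, in solvent. It fell by 0.84 (limma adjusted p = 1.21e-06). Its partner H2BC26 averaged 0.709 FPKM in A549/cDDP and 0.276 FPKM in A549 and rose by 0.64. H2BC26 averaged under 0.5 FPKM in A549 and passed the threshold through the A549/cDDP libraries. The filter thus favoured a rise, and whether this pair went apart cannot be read from it. H2AC11 and H2BC11 both rose, by 1.69 and 1.31.

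**Figure D3:**
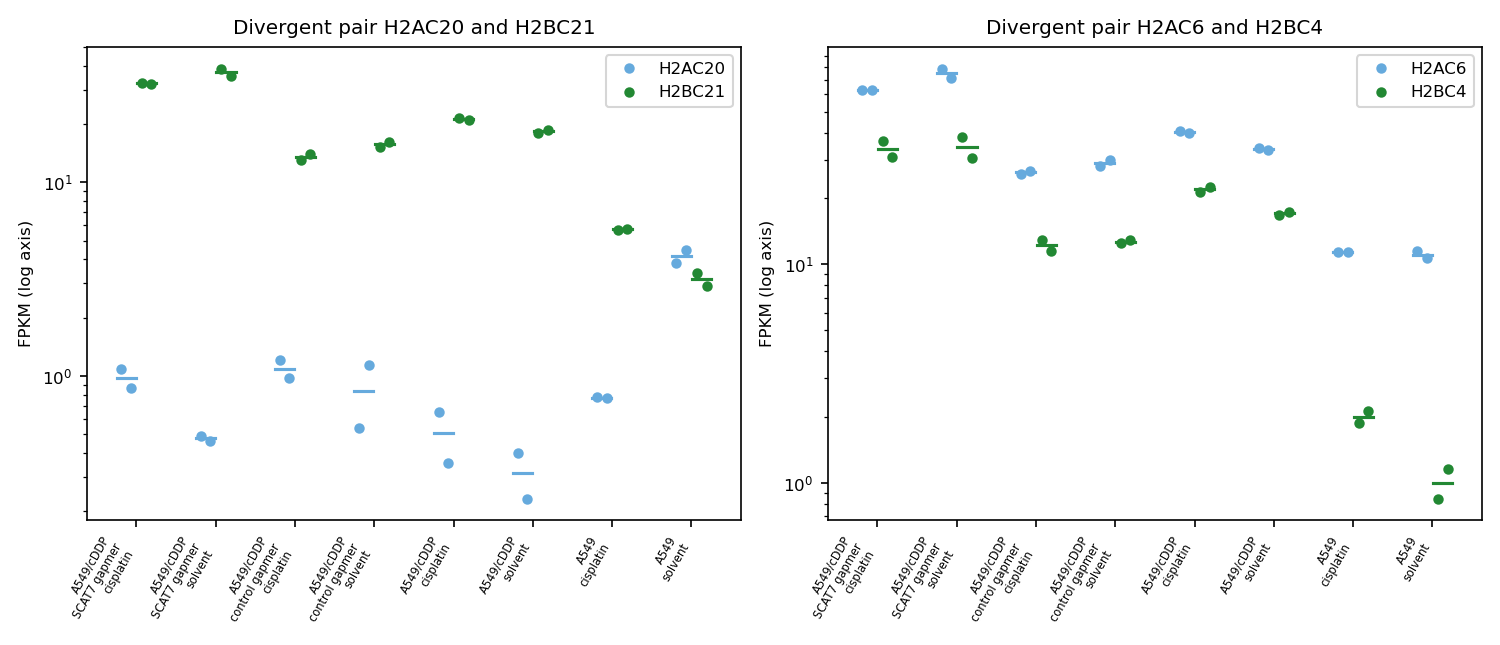
FPKM (log axis) of the divergent pairs H2AC20 with H2BC21 and H2AC6 with H2BC4 in the 8 groups, 1 point per library and a line at the group mean. H2AC20 and H2BC21 lie close in A549 in solvent (4.15 and 3.15 FPKM) and far apart in all other groups, while H2AC6 and H2BC4 run in parallel across the A549/cDDP groups.

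S phase genes are given beside the histone members, since these are transcribed in S phase. All 25 S phase genes of a list (replication licensing, DNA polymerases, nucleotide supply) were lower in A549/cDDP than in A549 in solvent (median log2 change fell by 1.26) and lower with the SCAT7 than with the control gapmer (medians fell by 1.51 in solvent and 1.23 in cisplatin). Shares lower over all genes tested were 27.5% between the lines in solvent, and 22.7% and 21.1% with the SCAT7 gapmer in solvent and cisplatin. RRM2, which supplies deoxynucleotides, averaged 90.4 ± 0.706 FPKM in A549/cDDP and 291 ± 3.38 FPKM in A549 in solvent (SD, n = 2 each). It averaged 44.4 ± 2.84 FPKM with the SCAT7 gapmer and 204 ± 5.37 FPKM with the control gapmer in solvent. All 25 were higher with the control gapmer than without transfection, against 20.7% of all genes tested in solvent and 23% in cisplatin. In cisplatin, however, 14 were higher and 6 lower in A549/cDDP than in A549, against 37% and 29.5% of all genes tested. With cisplatin in A549, 22 of 25 fell (median fell by 1.90), against 27.1% of all genes tested. The part of cell cycle distribution in the histone values was not tested.

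Genes of histone variants lie outside the clusters, and most give polyadenylated messages; H2AX is known to give a stem-loop message as well. Of 11 tested, 9 were lower in A549/cDDP than in A549 in solvent and 0 higher, and with the SCAT7 gapmer 9 were lower in solvent and 0 higher. Between the lines in cisplatin 3 were higher and 7 lower, with H2AX higher by 0.77. H2AZ1, an H2A variant of promoters, had 123 and 127 FPKM in A549/cDDP, against 361 and 355 FPKM in A549, in solvent. H2AX, the variant phosphorylated at DNA breaks, had 19.8 and 22.3 FPKM with the SCAT7 gapmer, against 85.9 and 85.6 FPKM with the control gapmer, in solvent (fell by 2.01, limma adjusted p = 2.03e-09). Of 20 histone chaperones, 14 were lower and 3 higher in A549/cDDP in solvent, and 15 lower and 3 higher with the SCAT7 gapmer in solvent. The shares over all genes tested were 27.5% lower and 42.7% higher between the lines, and 22.7% and 33.2% with the gapmer. Between the lines in cisplatin 8 chaperones were higher and 6 lower (median log2 change 0.08). These counts lie near the shares over all genes tested, 37% higher and 29.5% lower. HJURP, the chaperone of the centromeric histone CENPA, averaged 68.6 FPKM with the SCAT7 gapmer and 174.0 FPKM with the control gapmer in solvent.

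**Figure D4:**
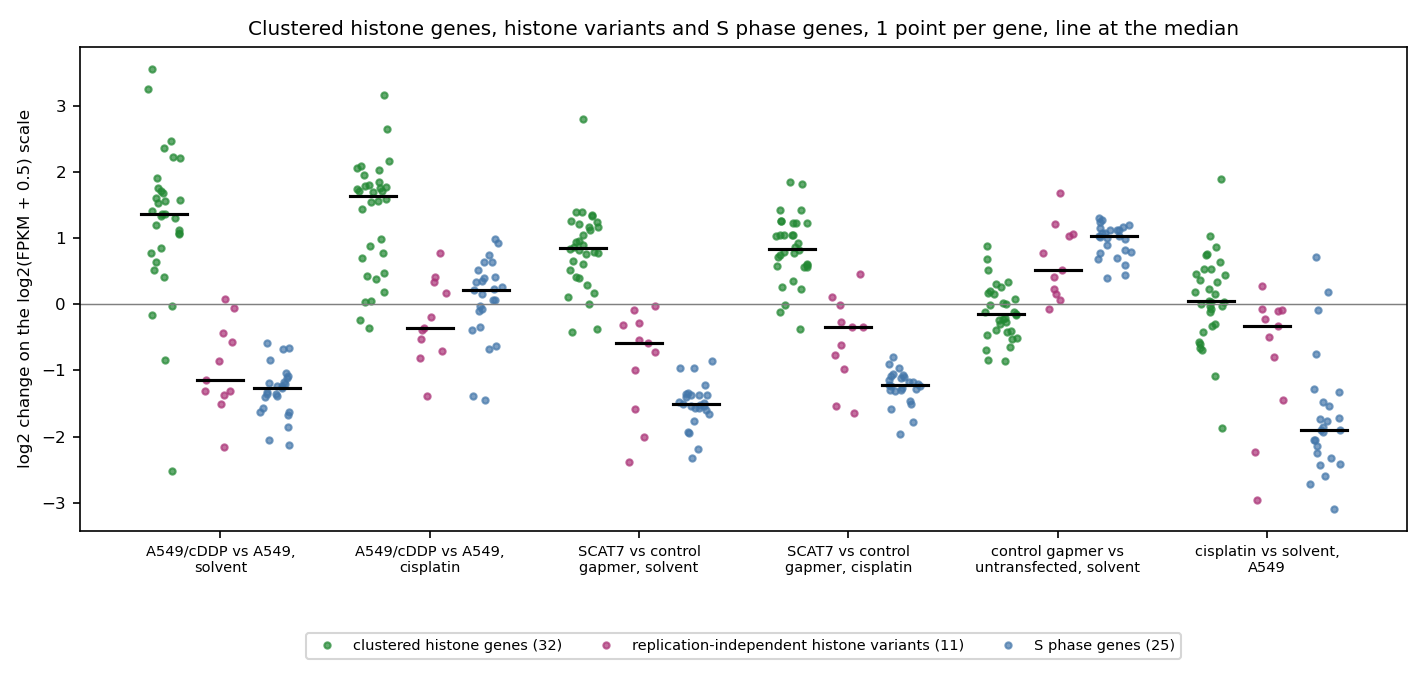
Log2 changes (y axis, log2(FPKM + 0.5) scale) of the 32 tested clustered histone genes, 11 histone variants and 25 S phase genes in 6 comparisons, 1 point per gene with a line at the median. In the SCAT7 gapmer comparison in solvent the medians are 0.85, -0.59 and -1.51.

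Of the 24 genes that transcribe histone genes or process their 3′ ends, 12 were lower and 7 higher in A549/cDDP than in A549 in solvent, and 12 lower and 3 higher with the SCAT7 gapmer in solvent. Over all genes tested, 27.5% were lower and 42.7% higher between the lines, and 22.7% and 33.2% with the gapmer. Between the lines in cisplatin the balance was 10 higher and 8 lower (median log2 change 0.10). Over all genes tested 37% were higher and 29.5% lower there, so these counts lie near those shares. The cyclins CCNE1 (1.02) and CCNE2 (0.94), their kinase CDK2 (0.61) and NPAT (0.34) were among the higher. SLBP, which binds the stem-loop, had 34.5 and 31.4 FPKM in A549/cDDP, against 62.2 and 62.5 FPKM in A549, in solvent (fell by 0.91, limma adjusted p = 3.13e-08). With the SCAT7 gapmer it had 28.8 and 31.2 FPKM, against 56.7 and 56.5 FPKM with the control gapmer, in solvent (fell by 0.91, limma adjusted p = 1.01e-07). In cisplatin SLBP had 33.6 and 32.2 FPKM in A549/cDDP, against 25.2 and 24.9 FPKM in A549, and rose by 0.39 (limma adjusted p = 8.1e-05), while 25 histone members were higher there as well. NPAT, the coactivator of histone transcription, was lower as well, at 6.60 and 6.38 FPKM with the SCAT7 gapmer, against 7.56 and 8.26 FPKM with the control gapmer, in solvent (fell by 0.27, limma adjusted p = 0.0438). TUT7, a uridylyltransferase that marks histone mRNA for decay, was higher in both comparisons in solvent, by 0.93 between the lines and by 1.11 with the SCAT7 gapmer. These lists share libraries with the members' comparisons and were set side by side without a test of the relation.

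Near copies limit at least 6 of the tested members. The coding sequences of H4C14, H4C11, H4C12 and H2AC19 are identical to that of another member, and those of H2BC12 and H2BC12L are 98.95% identical. H3C13 followed, with 97.08% identity to H3C15. For H4C16, H2BC15 and H2BC18 the search was not informative. Their longest reading frames (453, 501 and 405 bases), which it used, were longer than those of other members of their families. H4C14 also shares 230 bases with H3C14 on the opposite strand. How reads with several matches were treated is not given in the sources used here, so the split between such copies is uncertain.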

How the data were processed

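RNA from 16 libraries, 8 groups of 2, was purified on oligo(dT) per the labels' protocols. The authors deposited 1 table of FPKM values; the submitters' processing notes name TopHat2, HTSeq 0.6.1 and hg38, and the annotation release and strand setting are not given in the sources used here. Depth was estimated from the FPKM steps of low genes; low values of 39 of the 48 members that have any were whole reads within 0.05. The 17198 genes that averaged 0.5 FPKM or more were tested on log2(FPKM + 0.5) with limma 3.58.1 in R 4.3.3, as 1 fit of all groups with 8 residual degrees of freedom, with Benjamini-Hochberg adjustment over all genes tested and a threshold of 0.05. Fold changes on this scale understate those of low genes. A simulation with 200 changed genes recovered 99% of log2 changes of 1 and 74% of 0.5 for cisplatin in A549, with 2.81% false calls. Its spread followed the level of a gene alone, and in the data 60.4% of genes were called there. Its rates may therefore not hold for the data. Same-numbered replicates deviated together at correlations of -0.07 to 0.11, so the numbers were not taken as pairs. The members and lists were chosen with earlier results of these data known. Named genes are H1-2, H2BC21, H2BC12, H2AC6, H2BC4 and H2BC5, up to 8 called members with the largest change in each comparison, and up to 5 per other list with SLBP and NPAT; pair partners, near copies and the chromosome 6 interval were chosen after their values were seen. Transcript models came from GENCODE 29 and promoters from RefSeq. Alternatives were other pseudocounts, filters, scalings, a replicate block, separate fits and leaving out each library.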

Additional observations from a re-analysis of the deposited data

Results flagged for a closer look

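The cisplatin response differed between A549/cDDP and A549 by the interaction term of the limma fit for 12 members. The differences (A549/cDDP minus A549, log2) were 2.16 for H2AC20, 1.11 for H3C2, 0.90 for H4C16, 0.87 for H2AC25, 0.68 for H3C10, 0.48 for H2AC13 and 0.21 for H2AC6. They were -1.51 for H3C6, -0.93 for H2BC11, -0.77 for H4C14, -0.56 for H2BC21 and -0.40 for H1-2. With 1 library left out, the adjusted p of H2AC6 rose to at most 0.114 and that of H4C14 to at most 0.102; quantile normalization gave H4C14 an adjusted p of 0.106. Of all genes tested, 47% had a called difference.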

How the results depend on the processing

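No result changed sign past the threshold under any alternative run. The call for cisplatin with the control gapmer (1 member) became 0 with a pseudocount of 0.1, without a filter on low values, with quantile normalization, with the replicate block and with only the groups compared. For cisplatin in A549/cDDP, 5 calls became 3 without the filter and 3 with only the groups compared, and for cisplatin with the SCAT7 gapmer 1 became 0 with only the groups compared, where fewer samples enter the fit. The cause was not tested for the other settings. Without 1 library, called members numbered 11 to 15 for cisplatin in A549, 2 to 3 in A549/cDDP, 0 to 0 with the control gapmer and 0 to 1 with the SCAT7 gapmer. They numbered 27 to 28 and 23 to 24 between the lines in solvent and cisplatin, 20 to 22 and 20 to 25 between gapmers, and 7 to 12 and 11 to 17 for the control gapmer against no transfection. The difference of cisplatin effects gave 9 to 12 between the lines and 0 to 0 between the gapmers. With the replicate block, 28 and 25 members were called between the lines and 26 and 25 between the gapmers, and the block ended the call of H2BC12 for cisplatin with the control gapmer (adjusted p = 0.0661 in limma). Among all genes, fitting only the groups compared gave 417 calls in place of 1393 for cisplatin in A549/cDDP, 270 in place of 435 with the control gapmer, 0 in place of 719 with the SCAT7 gapmer, and 10 in place of 160 for the difference between gapmers, which was 262 without the filter. By median ratio the split between the gapmers in solvent was 4678 higher and 4837 lower over all genes, against 5702 and 3903 as deposited. At 0.1 FPKM 46 members passed, at 1 FPKM 27. Depth limits H2AC20 (3 to 61 reads per library) and H3C2 (4 to 50). It limits other tested members too, among them H4C12 (0 to 26), H2AC19 (0 to 27), H2BC17 (1 to 30), H2AC15 (1 to 31) and H3C13 (4 to 67).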
